A study of Mus musculus with 6 samples.

Results

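The 10 genes described here form the core of the circadian clock and its transcriptional output: the activators Clock and Arntl, the repressors Per1, Per2, Per3, Cry1 and Cry2, the nuclear receptors Nr1d1 and Nr1d2, and the output factor Dbp. They were taken by gene symbol from the annotation of the Illumina MouseWG-6 v2.0 array, on which 19 of 45281 probes carry these symbols. Of the 19 probes 17 passed the filter on dim probes (a detection p-value under 0.05 on at least 3 of 6 arrays), and all 10 genes were among the 11262 genes tested. Of the 10 genes 8 were read by a probe above background on all 6 arrays, and the exceptions were Per3 and Cry1.

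The study compared satellite cells, the muscle stem cells, of pharyngeal muscle (PSC, 3 pools) with those of limb muscle (LSC, 3 pools, from gastrocnemius and quadriceps). Both groups came from male C57BL/6 mice aged 8 to 10 weeks, and the labels name no treatment and no transgene. Each array read RNA, amplified in 1 round, of sorted cells pooled from 10 to 30 mice, so that the spread within a group is that between pools and not between mice. The sources used here give neither the sort markers nor the hour at which tissue was taken, so no value below could be set against a circadian phase.

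In the mammalian clock, CLOCK and ARNTL (BMAL1) pair and bind E-box elements, from which they switch on the Per, Cry, Nr1d and Dbp genes. PER and CRY proteins then return to the nucleus and silence that pair, while NR1D1 and NR1D2 repress Arntl and the ROR receptors activate it. DBP and its relatives TEF and HLF carry the rhythm onward through D-box elements. The same loop runs in skeletal muscle and in satellite cells, where Myod1 is among the targets of CLOCK and ARNTL.

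Per2 was lower in the pharyngeal pools by 2.29-fold and was the only one of the 10 genes past the threshold (limma, adjusted p under 0.05 over all genes tested). Dbp was next, with a mean 1.91-fold lower in PSC and an adjusted p of 0.0691, which missed the threshold. The activators Clock and Arntl, the repressors Per1 and Cry2, and the nuclear receptors Nr1d1 and Nr1d2 had differences between 0.11 and 0.31 on the log2 scale, none past the threshold. So 0 of 10 genes rose, 1 fell and 9 did not pass, and 2 had an unadjusted p under 0.05, against 20.3% of all genes tested at that level. Of all genes tested 3.32% were called (374 genes), 1.71% as higher and 1.61% as lower in PSC (193 and 181 genes, or 211 and 123 with median scaling in place of quantile normalization). A count of 1 gene in 10 is not a result about the clock genes as a set beside that background. The groups did not overlap for 4 of the 10 (26.7% of all genes tested). They were lower in PSC for Per2 and Dbp (15.0% of all genes) and higher in PSC for Nr1d1 and Nr1d2 (11.7%). The median difference of the 10 genes was 0.17, beside -0.06 over all genes tested, and the median size of difference, whatever its sign, was 0.26, beside 0.31.

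**Figure D1:**
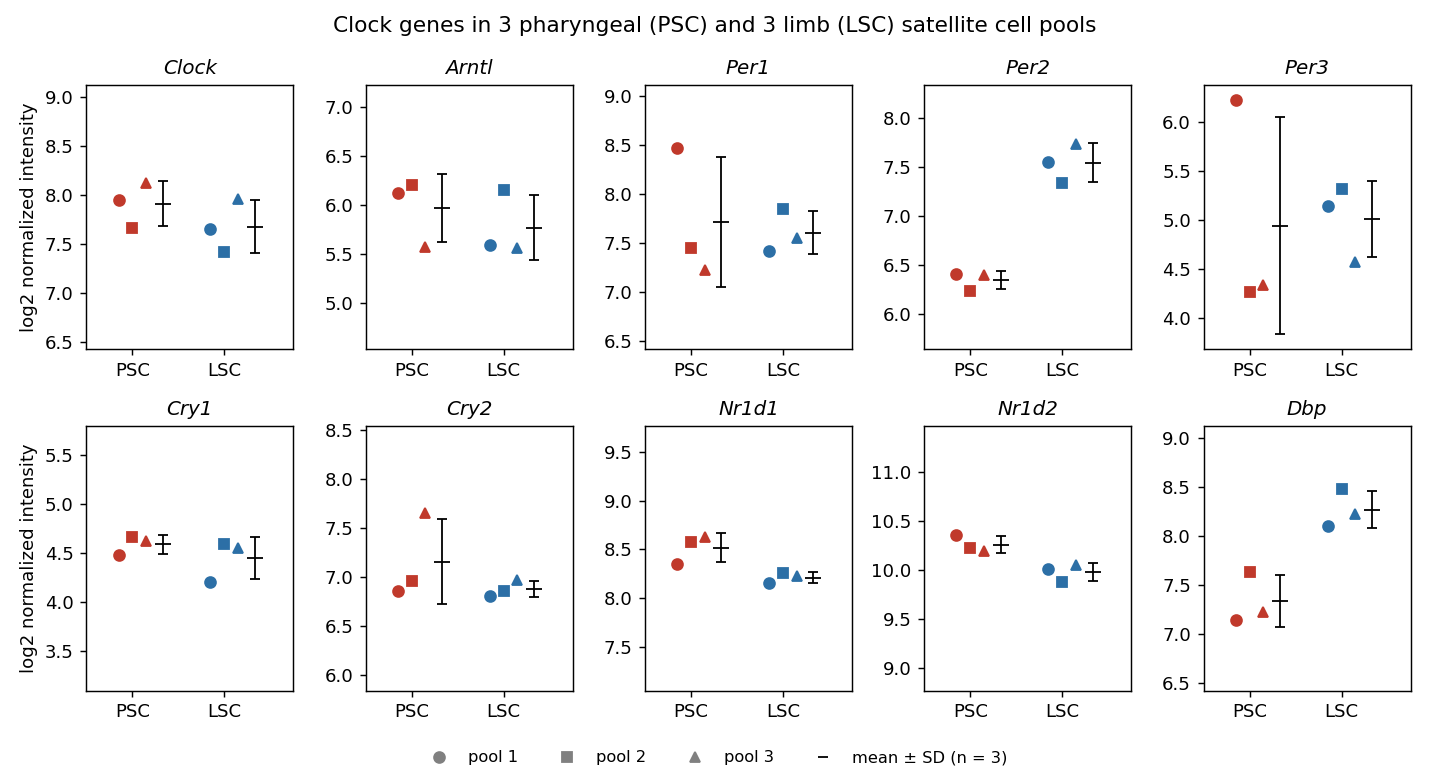
Log2 normalized intensity of each clock gene (vertical axis; every panel spans the same number of log2 units) in the 3 PSC pools (red, left) and the 3 LSC pools (blue, right), with the mean and SD of each group in black. The PSC pools lie below all LSC pools for Per2 and Dbp and above them for Nr1d1 and Nr1d2, and the groups overlap for the other genes.

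All 9 measured satellite cell markers were above background on all arrays, and markers of other cell types were also read in both groups. Detection alone does not give the share of satellite cells in a pool. Of the 9 satellite cell markers 5 fell in PSC (Pax7, Myf5, Cdh15, Calcr and Chodl), and their summed normalized intensity was 2408 to 2974 in PSC and 5100.3 to 7069.5 in LSC. Of 11 measured epithelial markers (12 listed) 7 rose, with a sum of 2599 to 8753 in PSC, highest in pool 3, and 358 to 512 in LSC, where Epcam, Krt13 and Krt15 were above background on no array. All 3 measured thyroid and parathyroid markers (8 listed) rose, and none was above background on an LSC array (sums of 1149 to 3129 in PSC and 58.6 to 60.02 in LSC). Of 4 measured tenocyte markers 2 fell (sums of 334 to 385 in PSC and 1159 to 2032 in LSC). Of 5 measured myeloid markers 2 rose (1231 to 2843 in PSC and 296 to 668 in LSC), and of 5 endothelial, 4 fibro-adipogenic and 5 pericyte or smooth muscle markers none passed. Junb alone fell among 12 immediate early genes, a class induced when tissue is dissociated (sums of 20569.9 to 24175 in PSC and 22845 to 27773 in LSC). The part of these cells in the clock gene values was not tested, and fewer cells of a type and less RNA per cell cannot be told apart in pooled RNA. The number of arrays, 3 in each group, limits the precision.

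Promoter sequence is shown for 6 genes: the clock genes Per1, Per3 and Dbp, and Tef, Ciart and Timeless of the other genes described below. All of the printed windows but that of Dbp hold an E-box or a D-box. Windows of Cry1, Cry2, Nr1d1 and other genes that hold an element are not printed. The windows are the 250 bases before the annotated start (RefSeq, GRCm38.p6), which the table used here holds for 9 of the 10 clock genes, all but Per2. Where a gene has several annotated starts, the table's first window is printed. Capitals mark the E-box CACGTG or the D-box TTATGTAA (TTACGTAA was searched too), on either strand.
Per1 (chr11:69098699-69098948, plus strand): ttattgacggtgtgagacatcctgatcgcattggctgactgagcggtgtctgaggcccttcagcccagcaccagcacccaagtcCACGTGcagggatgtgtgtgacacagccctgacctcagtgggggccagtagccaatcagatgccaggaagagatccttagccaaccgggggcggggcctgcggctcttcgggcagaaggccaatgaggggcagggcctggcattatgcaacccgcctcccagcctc
Per3 (chr4:151044666-151044915, minus strand): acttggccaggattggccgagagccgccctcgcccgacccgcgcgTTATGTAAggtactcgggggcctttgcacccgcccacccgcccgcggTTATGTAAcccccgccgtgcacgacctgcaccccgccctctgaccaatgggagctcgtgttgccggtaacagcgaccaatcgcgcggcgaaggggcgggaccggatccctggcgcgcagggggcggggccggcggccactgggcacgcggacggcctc
Dbp (chr7:45704997-45705246, plus strand): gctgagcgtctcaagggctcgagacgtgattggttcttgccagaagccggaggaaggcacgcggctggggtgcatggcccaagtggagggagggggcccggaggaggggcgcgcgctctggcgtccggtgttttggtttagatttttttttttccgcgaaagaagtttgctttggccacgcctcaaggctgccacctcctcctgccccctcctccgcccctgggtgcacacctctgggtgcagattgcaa
Tef (chr15:81802423-81802672, plus strand): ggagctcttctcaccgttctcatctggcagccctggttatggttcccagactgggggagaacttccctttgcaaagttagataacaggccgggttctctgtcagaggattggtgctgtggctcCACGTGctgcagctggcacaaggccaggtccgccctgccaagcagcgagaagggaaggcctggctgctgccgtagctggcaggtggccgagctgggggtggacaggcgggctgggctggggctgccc
Ciart (chr3:95882229-95882478, minus strand): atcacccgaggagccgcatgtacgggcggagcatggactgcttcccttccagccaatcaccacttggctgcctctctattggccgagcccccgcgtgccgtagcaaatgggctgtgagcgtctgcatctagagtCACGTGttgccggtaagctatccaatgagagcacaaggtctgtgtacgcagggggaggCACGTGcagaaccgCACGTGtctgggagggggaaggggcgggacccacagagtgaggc
Timeless (chr10:128237816-128238065, plus strand): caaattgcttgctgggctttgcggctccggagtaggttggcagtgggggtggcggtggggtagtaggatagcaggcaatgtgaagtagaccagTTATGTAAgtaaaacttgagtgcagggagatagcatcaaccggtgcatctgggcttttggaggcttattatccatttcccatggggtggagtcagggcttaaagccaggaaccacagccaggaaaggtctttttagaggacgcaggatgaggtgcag
The Per1 window holds an E-box 166 bases before the start, and the Per3 window holds D-boxes at 205 and 158 bases. Of the 9 clock genes with a window, Per1 and Cry1 hold an E-box, and Cry1, Cry2 and Nr1d1 hold the related CACGTT. These elements stand in 6.02% and 3.85% of all 32851 promoter windows of this length. Counted by gene, as the clock genes are here, 6.86% and 4.5% of 27025 genes hold them in any window. Per3 alone of the 9 holds a D-box, which stands in 0.931% of all windows (1.1% of genes). None holds the receptor element TAGGTCA (2.23% of all windows, 2.55% of genes). No matches in these genes overlap. A match of letters is a description of the window and not evidence of binding, and elements outside these windows, among them those within gene bodies, were not searched.

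The activators, the positive arm of the loop, were measured at close levels in both groups. Clock, a histone acetyltransferase and the partner of ARNTL, read 7.96, 7.67 and 8.12 in PSC pools 1 to 3, against 7.65, 7.42 and 7.96 in LSC pools 1 to 3 (log2 normalized intensity). The groups overlapped, with pool 2 lowest in both. The difference, PSC minus LSC, was 0.24 (SE 0.23, 95% interval -0.29 to 0.77, adjusted p = 0.613). The interval leaves room for a change of up to 1.70-fold upward and to 0.816 of the LSC level downward. The other Clock probes gave 0.18 and -0.22, neither past the threshold. Arntl, the basic helix-loop-helix partner without which the clock stops in mice, read 6.12, 6.20 and 5.56 in PSC, against 5.59, 6.15 and 5.56 in LSC. Its groups overlapped almost fully, and the difference was 0.20 (SE 0.27, 95% interval -0.42 to 0.82, adjusted p = 0.730). The only Arntl probe was above background on all 6 arrays.

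Among the period genes, whose proteins form the repressor complex with the cryptochromes, Per2 fell in PSC, while Per1 and Per3 did not pass the threshold. Per2 read 6.40, 6.23 and 6.39 in PSC, against 7.55, 7.33 and 7.73 in LSC. Every PSC pool lay below every LSC pool, with a gap between the groups several times the spread within PSC. The means were 6.34 ± 0.09 in PSC and 7.54 ± 0.20 in LSC (SD, n = 3 each). The difference was -1.20 (SE 0.19, 95% interval -1.65 to -0.74, limma adjusted p = 0.0217). The groups were also separate in the unnormalized intensities of this probe (ILMN_2987862), at 178, 159.9 and 157 in PSC and 226, 241 and 276 in LSC. On the same arrays the satellite cell marker sum was lower and the epithelial sum higher in PSC, as given above.

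The Per2 call rested on few arrays. With 1 array left out the difference stayed between -1.30 and -1.10. The adjusted p was 0.0370 without PSC pool 1 and 0.0441 without PSC pool 3. It was 0.0520 without PSC pool 2 and 0.0967, 0.0862 and 0.135 without LSC pool 1, 2 or 3, all above 0.05. Fewer genes were called in general without an LSC pool. The share over all genes tested was 0.736%, 0.573% and 0.535% without LSC pool 1, 2 or 3, beside 3.32% with all arrays. Without PSC pool 3, the pool with the highest epithelial sum, the difference was -1.23. PSC pools 1 and 2 also had higher epithelial sums (2599 and 3489) than the LSC pools (358 to 512). The part of such cells in the Per2 difference was therefore not tested by that fit.

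The other Per2 probe in the fit read the same direction with less certainty. Probe ILMN_2987863 read 5.33, 6.14 and 5.42 in PSC, against 6.07, 6.60 and 6.51 in LSC, with PSC pool 2 just above LSC pool 1. Its difference was -0.76 (SE 0.28, limma adjusted p = 0.205 over all kept probes, of which 2.51% were called). Probe ILMN_1258523 was too dim for the fit, with 94.7, 93.2 and 92.5 unnormalized units in PSC and 103, 99.9 and 95.05 in LSC. It was above background on no PSC array and on 2 of 3 LSC arrays, so its lower PSC values add nothing to those of the brighter probes.

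Per1, the period gene that also answers acutely to cyclic AMP and glucocorticoid signals, read 8.47, 7.45 and 7.23 in PSC, against 7.42, 7.85 and 7.55 in LSC. PSC pool 1 was above all other pools and PSC pool 3 below all, so that the LSC pools lay within the PSC range. The difference was 0.11 (SE 0.34, 95% interval -0.68 to 0.91, adjusted p = 0.891). The other probes did not set PSC pool 1 apart. Probe ILMN_1249997 read 8.00, 7.99 and 7.49 in PSC (difference 0.35), and probe ILMN_2813487 read 6.61, 6.84 and 6.72 (difference -0.31), neither past the threshold. Over 19 alternatives the Per1 difference lay between -0.06, with array weights, and 0.42, without LSC pool 2.

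Per3, the period gene that is dispensable for rhythm in mice, lay near background. Its brighter probe read 6.22, 4.26 and 4.34 in PSC, against 5.14, 5.31 and 4.57 in LSC, and was above background on 1 of 3 PSC and 2 of 3 LSC arrays. PSC pool 1 again held the highest value, and the difference was -0.07 (SE 0.53, adjusted p = 0.964). It was 0.27 without PSC pool 2, 0.25 without PSC pool 3 and 0.029 with an offset of 50 in the background model, so its sign was not settled. The other Per3 probe did not pass the filter, at 98.4, 86.3 and 97.5 unnormalized units in PSC and 96.6, 86.3 and 100.3 in LSC.

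**Figure D2:**
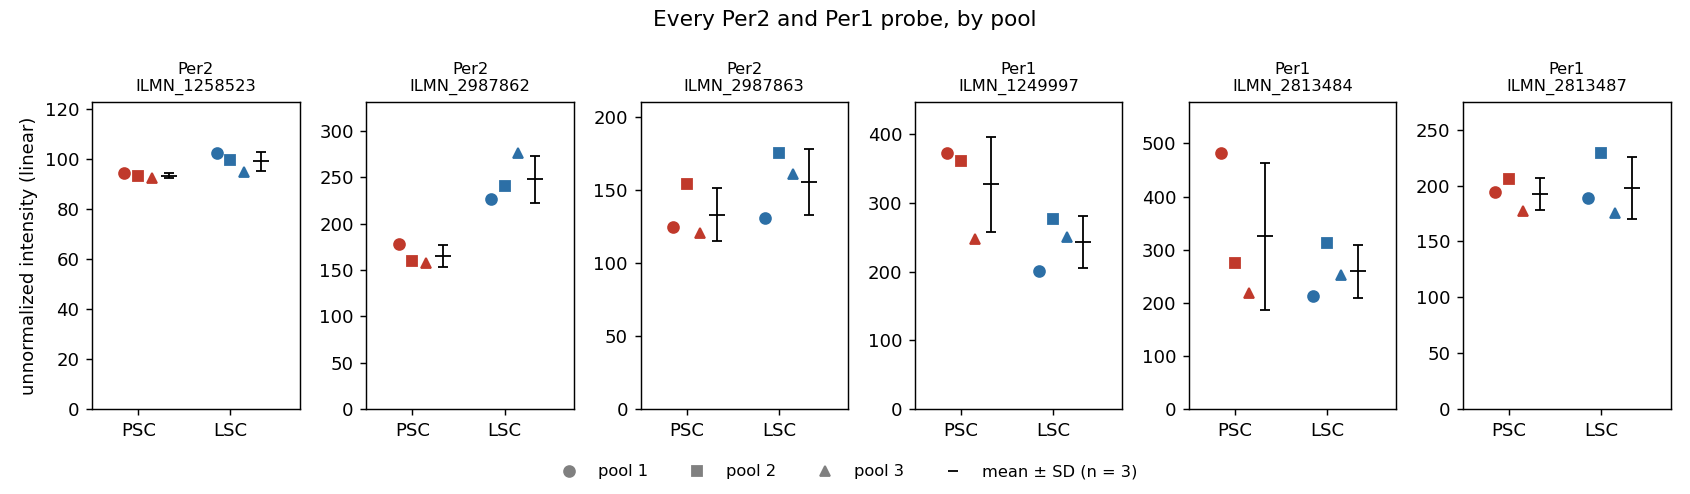
Unnormalized intensity (linear, from 0) of every Per2 probe and every Per1 probe in the 3 PSC pools (red, left) and the 3 LSC pools (blue, right), with mean and SD in black. PSC lies below LSC for probes ILMN_1258523 and ILMN_2987862 of Per2, and the groups overlap for the other Per2 probe and for all Per1 probes. Probe ILMN_1258523 was above background on no PSC array and on 2 of 3 LSC arrays.

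The cryptochromes are the stronger repressors of the CLOCK and ARNTL pair. Cry2 read 6.87, 6.96 and 7.66 in PSC, against 6.81, 6.86 and 6.97 in LSC. PSC pool 3 was the highest of the 6 arrays, and PSC pools 1 and 2 lay within the LSC range. The difference was 0.28 (SE 0.25, 95% interval -0.31 to 0.87, adjusted p = 0.591), and it was 0.03 without PSC pool 3. Its other probe gave 0.10. Cry1 read 4.48, 4.67 and 4.62 in PSC, against 4.21, 4.59 and 4.55 in LSC, and its single probe was above background on 2 of 3 PSC and 1 of 3 LSC arrays. The difference was 0.14 (SE 0.20, adjusted p = 0.741), on a scale where the offset of the background model compresses differences between dim values.

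Nr1d1 and Nr1d2 (REV-ERB alpha and beta), heme-binding receptors that repress Arntl, were slightly higher in PSC on average. Nr1d1 read 8.35, 8.58 and 8.62 in PSC, against 8.15, 8.26 and 8.23 in LSC. Nr1d2 read 10.36, 10.23 and 10.20 in PSC, against 10.01, 9.88 and 10.05 in LSC. Neither gene's groups overlapped, and both were among the steadiest clock genes within groups. The differences were 0.31 for Nr1d1 (SE 0.18, 95% interval -0.12 to 0.73) and 0.28 for Nr1d2 (SE 0.18, 95% interval -0.13 to 0.70), with adjusted p of 0.399 and 0.430. Both kept a positive sign in each of 19 alternative fits and passed the threshold in none of them. The other Nr1d2 probe gave 0.23 with overlapping groups.

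Dbp, a PAR bZIP factor whose transcript is among the most strongly cycling outputs of the clock, was the other clock gene with lower values in PSC. It read 7.14, 7.63 and 7.22 in PSC, against 8.10, 8.47 and 8.22 in LSC. All PSC pools lay below all LSC pools after normalization, while in unnormalized intensity PSC pool 2 (302) and LSC pool 1 (301) were level. The means were 7.33 ± 0.27 in PSC and 8.27 ± 0.19 in LSC (SD, n = 3 each). The difference was -0.93 (SE 0.22, 95% interval -1.45 to -0.42, limma adjusted p = 0.0691). It passed the threshold with an offset of 50 (adjusted p = 0.0443), without background correction (0.0371), in the authors' processed table (0.0371) and with an intensity trend in the variance model (0.0440). It did not pass in any fit with 1 array left out (0.0577 to 0.259). The Dbp window printed above holds none of the elements searched.

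How far pools of the same group differed varied widely among the 10 genes. The pooled within-group SD was 0.09 for Nr1d2, 0.11 for Nr1d1, 0.16 for Per2, 0.17 for Cry1, 0.23 for Dbp and 0.25 for Clock (log2). It was 0.31 for Cry2, 0.34 for Arntl, 0.49 for Per1 and 0.83 for Per3. Nr1d2 and Nr1d1 stood at the 2.59th and 4.93rd percentile of all genes tested by this measure, and Per1 and Per3 at the 77.1st and 95.9th. The median SD of the 10 genes was 0.25 in PSC and 0.21 in LSC, beside 0.36 and 0.22 over all genes tested. No pool was high or low across the clock genes as a whole: PSC pool 1 was highest for Per1, Per3 and Nr1d2, PSC pool 3 for Clock, Cry2 and Nr1d1, and PSC pool 2 for Arntl and Cry1.

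The genes whose profile over the 6 arrays was closest to that of Per2 were Thrsp, Ccdc88a and Anapc16. Likeness was the root mean square distance between log2 values centred on each gene's mean, which was 0.08, 0.08 and 0.09 for these genes, beside a median of 0.66 over the 11261 other genes tested. Their own differences were -1.07, -1.08 and -1.22, and a distance over 6 arrays follows mainly the gap between the groups. Thrsp read 4.35, 4.17 and 4.35 in PSC, on each array below a clock gene probe that was not above background. It passed the filter on dim probes through the LSC arrays, so its likeness adds nothing to the Per2 values.

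Other genes of the clock were read from a list of 27, of which 20 were measured. The probes of Arntl2, Rorb, Bhlhe41 and Fbxl21 did not pass the filter. Of the 20 measured genes 1 rose, none fell and 19 did not pass, beside 3.32% of all genes tested that were called. An unadjusted p under 0.05 was found for 8 of the 20, beside 20.3% of all genes tested. The groups did not overlap for 11 of the 20, beside 26.7% of all genes tested. Of these, 4 were higher and 7 lower in PSC, beside 11.7% and 15.0% of all genes tested. The median difference was -0.16.

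Timeless was the gene that rose. It is the mammalian relative of a fly clock gene and is known in mammals mainly for protecting replication forks. It read 7.73, 7.78 and 7.64 in PSC, against 6.51, 6.19 and 6.33 in LSC, a gap far wider than the spread in either group. The difference was 1.38 (SE 0.19, 2.60-fold, limma adjusted p = 0.0110), and its other kept probe gave 1.56 (adjusted p = 0.0307 over all kept probes). The call was lost without LSC pool 1, 2 or 3 (adjusted p = 0.0539, 0.0848 and 0.0855). Its promoter window holds a D-box 157 bases before the start.

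Tef and Hlf, the bZIP relatives of Dbp that bind the same D-box, also had lower means in PSC. Tef read 7.87, 7.41 and 7.65 in PSC, against 8.87, 8.36 and 8.44 in LSC, with no overlap. Its difference was -0.91 (SE 0.23, adjusted p = 0.0813). The dimmer Tef probe gave -0.50 and was above background on 1 of 3 PSC and all 3 LSC arrays. It passed the filter on dim probes mainly through the LSC arrays, so it adds nothing to the brighter probe. Tef passed the threshold in 3 alternatives: without background correction (adjusted p = 0.0485), in the authors' processed table (0.0485) and with an intensity trend (0.0446). Hlf read 4.56, 4.79 and 4.50 in PSC, against 4.90, 5.70 and 5.36 in LSC, and was above background on 1 of 3 PSC arrays. Its difference of -0.70 did not pass (adjusted p = 0.179). Hlf passed the filter on dim probes mainly through the LSC arrays, on all 3 of which it was above background, so its lower PSC values add nothing to those of Dbp and Tef. The E-box of Tef lies 127 bases before its start.

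Among the remaining repressors and receptors, Ciart, a repressor of the CLOCK and ARNTL pair, had a higher mean in PSC. It read 5.90, 5.32 and 5.64 in PSC, against 4.89, 5.26 and 4.71 in LSC (difference 0.66, SE 0.24, adjusted p = 0.190). Its other kept probe gave 0.41 (limma adjusted p = 0.295 over all kept probes) and was above background on all 3 PSC arrays and on no LSC array. That probe passed the filter on dim probes through the PSC arrays alone, so its higher PSC values add nothing to those of the brighter probe. The Ciart window holds E-boxes at 116, 58 and 44 bases before the start. Bhlhe40, an E-box repressor, differed by 0.09, Rora, the activator of Arntl, by -0.05, and Npas2, a Clock paralog, by -0.20, none past the threshold. The dimmer Rora probe gave -0.77, above background on 1 of 3 PSC arrays.

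None of the 5 measured kinases and ubiquitin ligase subunits that set the stability of PER and CRY proteins passed the threshold. The casein kinase Csnk1e differed by -0.03 and Gsk3b by 0.14, and the ligase subunits Btrc and Fbxw11 by -0.55 and -0.23 (other Btrc probes 0.23 and -0.17, the other Gsk3b probe -0.63). For Csnk1d the brightest probe gave 0.44, and its other 4 probes gave 0.36, 0.17, -0.63 and -0.69, so that its probes disagreed in sign. Nono, an RNA-binding partner of the PER complex, differed by -0.31 without passing.

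Of 7 measured output genes none passed in the fit as reported. Lower means in PSC were found for 6 of them, beside 6255 of all 11262 genes tested. Tsc22d3 (GILZ), which is induced by glucocorticoids, read 9.65, 9.43 and 9.62 in PSC, against 10.39, 10.33 and 10.25 in LSC, with no overlap (difference -0.76, SE 0.18, adjusted p = 0.0717). A dimmer Tsc22d3 probe gave -2.21 (SE 0.24, limma adjusted p = 0.00511 over all kept probes). With the mean of its kept probes in place of the brightest the difference was -1.48 (adjusted p = 0.00749). Tsc22d3 also passed with an offset of 50 (adjusted p = 0.0270), without background correction (0.0146), in the authors' processed table (0.0146), with no filter (0.0319) and with an intensity trend (0.00616), and in no fit with 1 array left out (0.0886 to 0.252). Wee1, the mitotic kinase gene under E-box control, differed by -0.85 and the ligase gene Lonrf3 by -0.74 (its other kept probe 0.08), with adjusted p of 0.213 and 0.215. Myod1, the myogenic factor, differed by -0.38, Nampt, of NAD synthesis, by -0.13 (its other probe 0.51) and the sarcomere gene Tcap by -0.10 (its other probe 0.06). Usp2, a deubiquitinase gene, differed by 0.47, and its other kept probes gave 0.38, 0.08 and -0.11.

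**Figure D3:**
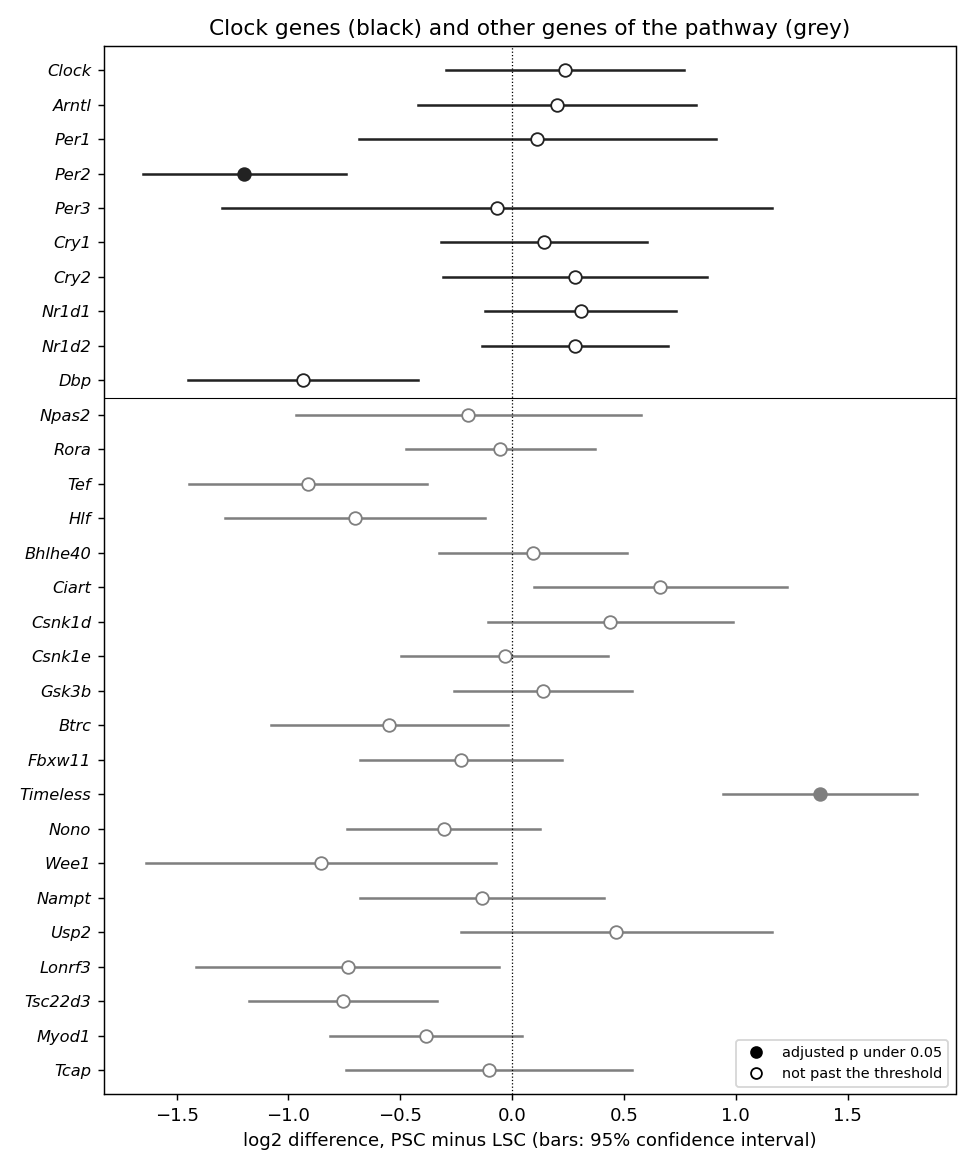
Log2 difference, PSC minus LSC (horizontal axis), of the 10 clock genes (black) and 20 other measured genes of the pathway (grey), with 95% confidence intervals as bars. Filled points passed the threshold: Per2 at -1.20 and Timeless at 1.38, with Dbp at -0.93 and Tef at -0.91 as open points.

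**Figure D4:**
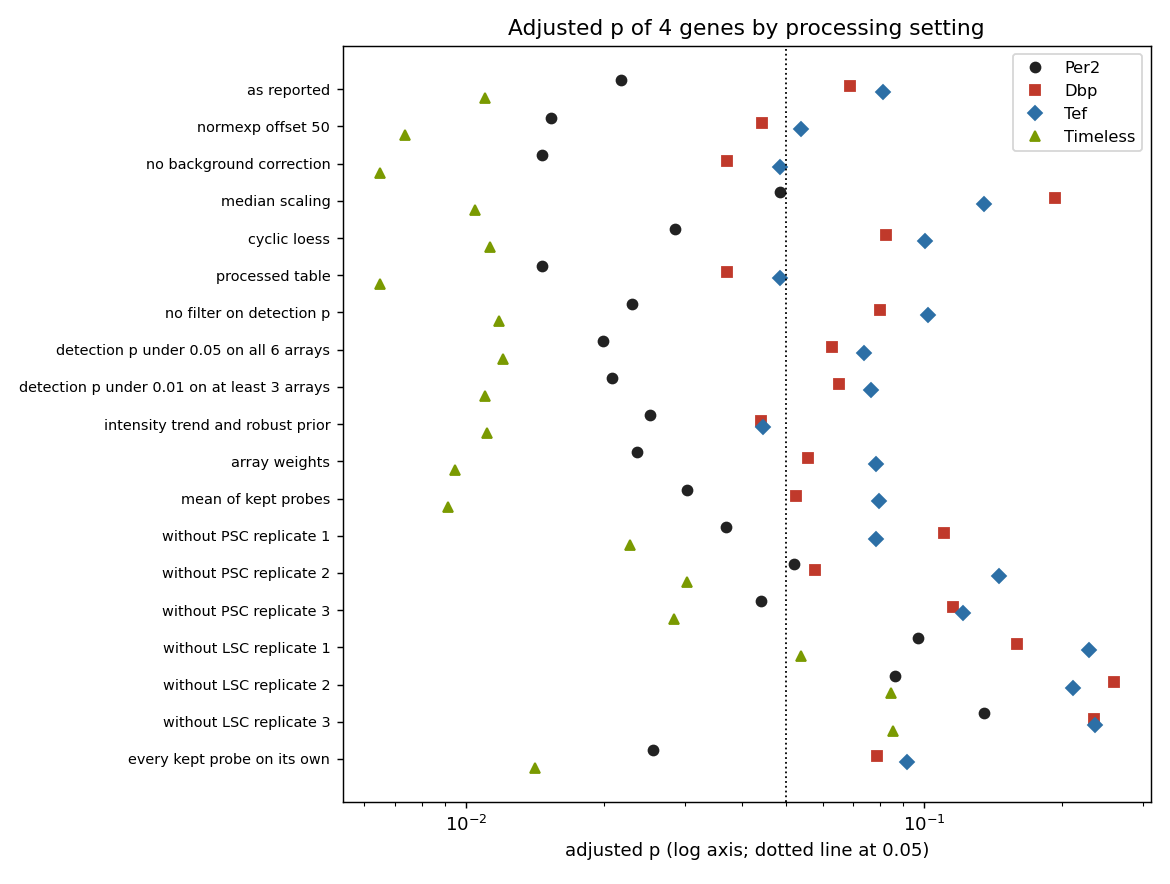
Adjusted p (horizontal log axis, dotted line at 0.05) of Per2, Dbp, Tef and Timeless, in the fit as reported and in each processing alternative drawn (vertical axis). Per2 and Timeless lie right of the line in each fit that leaves out an LSC pool, with Per2 at 0.0967, 0.0862 and 0.135. Per2 also lies right of the line without PSC pool 2 (0.0520). The fit with a replicate block is not drawn (limma adjusted p of 0.0711 for Per2 and 0.0592 for Timeless).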

How the data were processed

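The authors deposited raw probe intensity, a detection p-value for every probe on each of 6 arrays, and a processed intensity table. GenomeStudio 2011.1 is named in the submitters' processing notes, and per the labels' protocols the RNA was amplified before biotin labelling. A deposited detection p-value gives, per the series' design text, the fraction of negative controls that exceed the probe. The same text names background correction, but the lowest deposited intensity per array lay between 76.1 and 82.1. Raw intensities were therefore used. The processed table, with no normalization method given here, was an alternative, and its member differences were nearly those of quantile normalization without background subtraction. All 6 arrays lay on 1 chip, PSC on the first 3 positions, so that position and group cannot be told apart.

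Background was removed with limma 3.58.1 (R 4.3.3) by normexp (background from the detection p-values, offset 16). Arrays were then quantile normalized, and the log2 of the normalized values was taken. Folds of dim genes are understated by the offset. Probes were named from the platform annotation (34885 with 1 symbol, 18 with several, 10378 unnamed here), and Entrez identifiers of 34807 probes matched the GRCm38.p6 gene table, with 0 symbols changed. The brightest kept probe stood for a gene. Above background means a detection p under 0.05. Differences are PSC minus LSC from lmFit and eBayes on a model of group alone, 2-sided, with Benjamini-Hochberg adjustment over all genes (or all 22633 kept probes) and moderated standard errors. P-values set the difference between groups against the spread between pools, moderated over all genes. The genes, lists, naming rule (all members and every measured gene of the wider list, and the 3 genes nearest the member with the smallest adjusted p) and tests were chosen with earlier results of these data known. The fit was tested on simulated data. Alternatives covered background model, offset, normalization, source table, filter, variance model, array weights, probe rule, replicate block and each array left out.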

Additional observations from a re-analysis of the deposited data

How the results depend on the processing

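The count of clock genes that fell (1, Per2) was 2 with an offset of 50, without background correction, in the processed table and with an intensity trend and robust prior, where Dbp passed too. It was 0 with a replicate block and ranged from 0 to 1 with 1 array left out. The count that rose was 0 under each of 19 alternatives. In the wider list the count that rose (1, Timeless) was 0 with a replicate block and 0 to 1 with 1 array left out. The count that fell there (0) was 1 with an offset of 50, with no filter, with the mean of kept probes and with every kept probe tested on its own, and 2 without background correction, in the processed table and with an intensity trend. Over all genes, 193 rose and 181 fell; the counts were 307 and 261 with an intensity trend, 74 and 65 with a replicate block, and 31 to 148 and 27 to 212 with 1 array left out. Same-numbered pools did not deviate together (correlations across genes of -0.010, -0.013 and 0.0002 for pools 1, 2 and 3), so the numbers are not taken as pairs; with that replicate block the adjusted p was 0.0711 for Per2 and 0.0592 for Timeless.

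Signs changed for 10 genes, none past the threshold with either sign; Lonrf3 (-0.74 as reported) and Csnk1d (0.44) turned where another probe or the mean of probes was read. Per1 was -0.057 with array weights. Per3 was 0.029 with an offset of 50, 0.27 without PSC pool 2 and 0.25 without PSC pool 3. Npas2 was 0.048 without LSC pool 3. Rora was 0.040 with median scaling and 0.0063 without PSC pool 1. Csnk1e was 0.12 with median scaling, 0.0087 with cyclic loess and up to 0.048 with 1 array left out. With the mean of kept probes Csnk1d was -0.070, Gsk3b -0.24 and Nampt 0.19. Nampt was also 0.029 with median scaling and 0.069 without LSC pool 1. Lonrf3 was 0.076 with probes above background on all arrays, and Tcap 0.041 with median scaling, 0.09 without PSC pool 2 and 0.10 without LSC pool 1. With 1 array left out the ranges were -0.29 to 0.27 for Per3, -0.48 to 0.048 for Npas2, -0.12 to 0.0063 for Rora, -0.16 to 0.048 for Csnk1e, -0.30 to 0.069 for Nampt and -0.27 to 0.10 for Tcap. Where another probe was used or arrays were fewer, the alternative's construction shows it; otherwise the cause was not tested. Signals near background limit Per3, Cry1 and Hlf.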
